A study of Homo sapiens with 9 samples.

Results

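The genes of the EGFR family of receptors and their ligands were followed through 9 RNA-seq libraries. They are 9 of the 17529 genes in the deposited table: the receptors EGFR, ERBB2 and ERBB3, and the ligands HBEGF, TGFA, BTC, EREG, AREG and EPGN. They were chosen from the read counts and TPM of these same libraries, in the comparisons of both knockdowns with the control, so their values against the control are given as a description and carry no test. The cells carry the label NCI-H69, a human line established from a small cell lung cancer, and were grown with serum. All 9 cultures were transfected with an siRNA and their RNA was taken 48 hours later. There were 3 groups of 3 biological replicates. In the NC group the siRNA was the negative control. In the si_CSNK2B group it was directed at CSNK2B, whose product regulates the protein kinase CK2, and in the si_P300 group at P300, an acetyltransferase whose gene is EP300. Neither the siRNA sequences, their number or dose, nor whether replicates were separate cultures is stated in the sources used here, so the p-values measure the spread between these libraries.

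EGFR, ERBB2 and ERBB3 encode receptors that span the cell membrane and signal as pairs. EGFR binds the ligands described here. ERBB2 has no known ligand and serves as the preferred partner of the others, and ERBB3, whose own kinase is weak, binds neuregulins and recruits PI3 kinase. The ligands are made as membrane-anchored precursors that proteases such as ADAM17 cut free, and the pairs they form activate the RAS-ERK and PI3 kinase pathways. In epithelial cells, transcripts of several of the ligands and of feedback inhibitors are themselves induced by ERK signalling.

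The genes of AREG, EREG, EPGN and BTC lie side by side on chromosome 4, within 486.2 kb (GRCh38, 74308473 to 74794686, GENCODE 29). EGFR lies on chromosome 7 (55019021 to 55211628, plus strand), ERBB2 on chromosome 17 (39687914 to 39730426, plus), ERBB3 on chromosome 12 (56076799 to 56103505, plus), HBEGF on chromosome 5 (140332843 to 140346631, minus) and TGFA on chromosome 2 (70447280 to 70554193, minus). GENCODE 29 places the antisense gene EGFR-AS1 over part of EGFR, PGAP3, MIEN1 and MIR4728 over parts of ERBB2, AC034102.2 over part of ERBB3 and TGFA-IT1 within TGFA. EGFR-AS1, PGAP3 and MIEN1 lie on the strand opposite the member they overlap, and the strand setting of the counting is not stated. AC034102.2, MIR4728 and TGFA-IT1 lie on the same strand, which no strand setting would separate. The levels of these members are uncertain to that extent. No gene overlaps HBEGF, BTC, EREG, EPGN or AREG in that annotation.

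RefSeq's promoter table (GRCh38.p14) held 8 of the 9 members. The 120 bases before the start are shown for the receptor and the ligand with the lowest levels relative to NC (EGFR and HBEGF), and for the 3 ligands that were near 0 in every library (AREG, EREG and EPGN). Capitals mark matches, on either strand, to a cyclic AMP response element (TGACGTCA), a TATA box (TATAAA), a GC box (GGGCGG), an AP-1 element (TGANTCA), an EGR element (GCGTGGGCG) or an ATF4 element core (TGATGCAA). In HBEGF, 2 of the GC box matches share a base.
HBEGF, chr5:140346604-140346723, minus strand: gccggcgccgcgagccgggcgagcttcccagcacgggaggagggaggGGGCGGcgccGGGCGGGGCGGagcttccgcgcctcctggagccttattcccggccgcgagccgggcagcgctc
EGFR, chr7:55018897-55019016, plus strand: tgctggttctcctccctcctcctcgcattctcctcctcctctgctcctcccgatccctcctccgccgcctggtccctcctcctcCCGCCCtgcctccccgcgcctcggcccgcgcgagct
AREG, chr4:74445016-74445135, plus strand: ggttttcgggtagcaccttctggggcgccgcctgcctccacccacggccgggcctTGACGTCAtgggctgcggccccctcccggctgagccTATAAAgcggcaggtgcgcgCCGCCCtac
EREG, chr4:74365025-74365144, plus strand: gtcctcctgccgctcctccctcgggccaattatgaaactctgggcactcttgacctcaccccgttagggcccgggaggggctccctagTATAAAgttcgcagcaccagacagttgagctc
EPGN, chr4:74308350-74308469, plus strand: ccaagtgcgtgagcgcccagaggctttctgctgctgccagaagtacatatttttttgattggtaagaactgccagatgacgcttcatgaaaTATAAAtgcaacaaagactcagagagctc

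Over the 250 bases before each start, TATA box letters occurred in AREG and EPGN from position -29 and in EREG from position -32, and at a further EGFR start of the table, not shown, from -146 and -36. They occur in 10.7% of the 35116 promoters. HBEGF had 5 GC box matches and the EGFR start shown had 2, letters that 42.6% of all promoters hold. GC box letters also lay before a TGFA start, not shown, from -204, -131 and -73, and before AREG, from -9. The match of AREG to the cyclic AMP response element lay at -65 to -58, and 1.65% of all promoters hold one. AP-1 letters lay at the further EGFR start, from -232 and -136, and before ERBB2, from -222, and occurred in 6.57% of all promoters. That further start lies inside the EGFR gene of GENCODE 29. Of the last 120 bases before it, 116 lie in GENCODE 29 exons. All 120 do so before ERBB2, BTC and both TGFA starts, so RefSeq's starts and this annotation differ there. EGR letters (0.72% of all promoters) and ATF4 letters (0.772%) were found before none of the 8 members. G and C made up 76.4% of the bases before HBEGF and 73.6% before EGFR, against 38.0% before EPGN and a median of 58.0% over all promoters.

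Total counts ran from 13111637 to 18286372 per library. Counts scaled to library size (CPM) that a count of 0 allows were 0.164 to 0.229, for counting error only. Across genes, which are not independent replicates, log2 counts correlated at 0.949 to 0.968 between an NC library and a knockdown library. Between libraries of both knockdown groups they correlated at 0.975 to 0.988. Within groups the range was 0.989 to 0.991 in NC, 0.982 to 0.985 in si_CSNK2B and 0.971 to 0.984 in si_P300. Neither targeted transcript passed in its own group (edgeR quasi-likelihood test, adjusted by Benjamini-Hochberg over 13129 tested genes): CSNK2B read 192.8, 167.9 and 185.4 CPM in NC and 167.7, 149.2 and 138.9 CPM in si_CSNK2B (adjusted p = 0.0732), and EP300 41.8, 50.8 and 43.0 CPM in NC and 40.1, 32.9 and 37.3 CPM in si_P300 (adjusted p = 0.101). Other genes overlap CSNK2B and EP300 in GENCODE 29, which adds to the uncertainty of both. DESeq2 passed CSNK2B (adjusted p = 0.0420, within 0.0347 to 0.273 over 19 alternatives), as did the fit without si_CSNK2B replicate 1. The other siRNA gave about the same values: the log2 fold change of CSNK2B was -0.26 in si_CSNK2B and -0.22 in si_P300, and that of EP300 was -0.30 in si_P300 and -0.27 in si_CSNK2B. Between the knockdown groups CSNK2B differed by -0.04 and EP300 by 0.03 (edgeR adjusted p = 0.992 and 0.993), so this test did not tell the groups apart by their targets, and group names here are those of the labels. Of 11 listed markers of neuroendocrine small cell lung cancer, which define the labelled cell type, 7 were among the genes measured. NEUROD1, INSM1, GRP and CALCA were not, so their levels could not be read. The 7 measured were near 0: 0 reached 1 TPM in any group, and their sum was 0.65 to 1.57 TPM in every library. All 8 epithelial markers were above 1 TPM, with sums of 8294.6 to 8911.5 TPM in NC, 7001.0 to 7227.5 TPM in si_CSNK2B and 6617.0 to 7919.4 TPM in si_P300. Of 8 listed leukocyte markers, 6 were measured. Among the markers of other cells, only COL1A1 of 7 fibroblast markers and CD68, LCP1 and PTPRC of those 6 reached a group mean of 1 TPM. None of 5 endothelial markers did. The fibroblast markers summed to 5.57 to 6.47, 5.82 to 9.10 and 4.68 to 7.78 TPM in NC, si_CSNK2B and si_P300, the leukocyte markers to 9.36 to 11.3, 8.16 to 10.0 and 6.74 to 9.83 TPM, and the endothelial markers to at most 0.28 TPM in any library. In NC, UCHL1, DCN, LUM and KDR were at 0. Single markers moved with the knockdowns. LCP1 fell 3.76-fold in si_CSNK2B and 3.98-fold in si_P300, ESRP1 2.32-fold and 2.18-fold, CLDN7 1.7-fold and 1.52-fold, and KRT18 1.63-fold and 1.59-fold, and CLDN4 fell 1.47-fold in si_CSNK2B. EPCAM, CDH1, KRT8 and KRT19 did not pass in either comparison (edgeR). The part of these markers in the results below was not tested.

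In NC, HBEGF was the most abundant member in TPM, a scale that accounts for transcript length, at 103.8 ± 5.16 TPM (SD, n = 3). ERBB2 followed at 53.3 ± 1.64 TPM, then EGFR at 38.1 ± 3.86 TPM, ERBB3 at 23.8 ± 0.491 TPM, TGFA at 17.6 ± 0.300 TPM and BTC at 14.5 ± 2.49 TPM. Each of these 6 stood apart from the next in that order, since their libraries did not overlap. EPGN (0.180 ± 0.120 TPM), EREG (0.1 ± 0.0781 TPM) and AREG (0.0300 ± 0.0520 TPM) overlapped each other near 0. The order was different in both knockdown groups, where ERBB2 and ERBB3 led and did not overlap their neighbours, and HBEGF and EGFR overlapped each other. By mean TPM over all genes of the table, HBEGF ranked 1542 in NC, 8643 in si_CSNK2B and 7646 in si_P300. EGFR ranked 3859, 8316 and 8220 in the same order of groups, while ERBB2 ranked 2914, 2536 and 2590. In bulk RNA, fewer cells expressing a gene and less RNA of it per cell cannot be told apart.

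**Figure D1:**
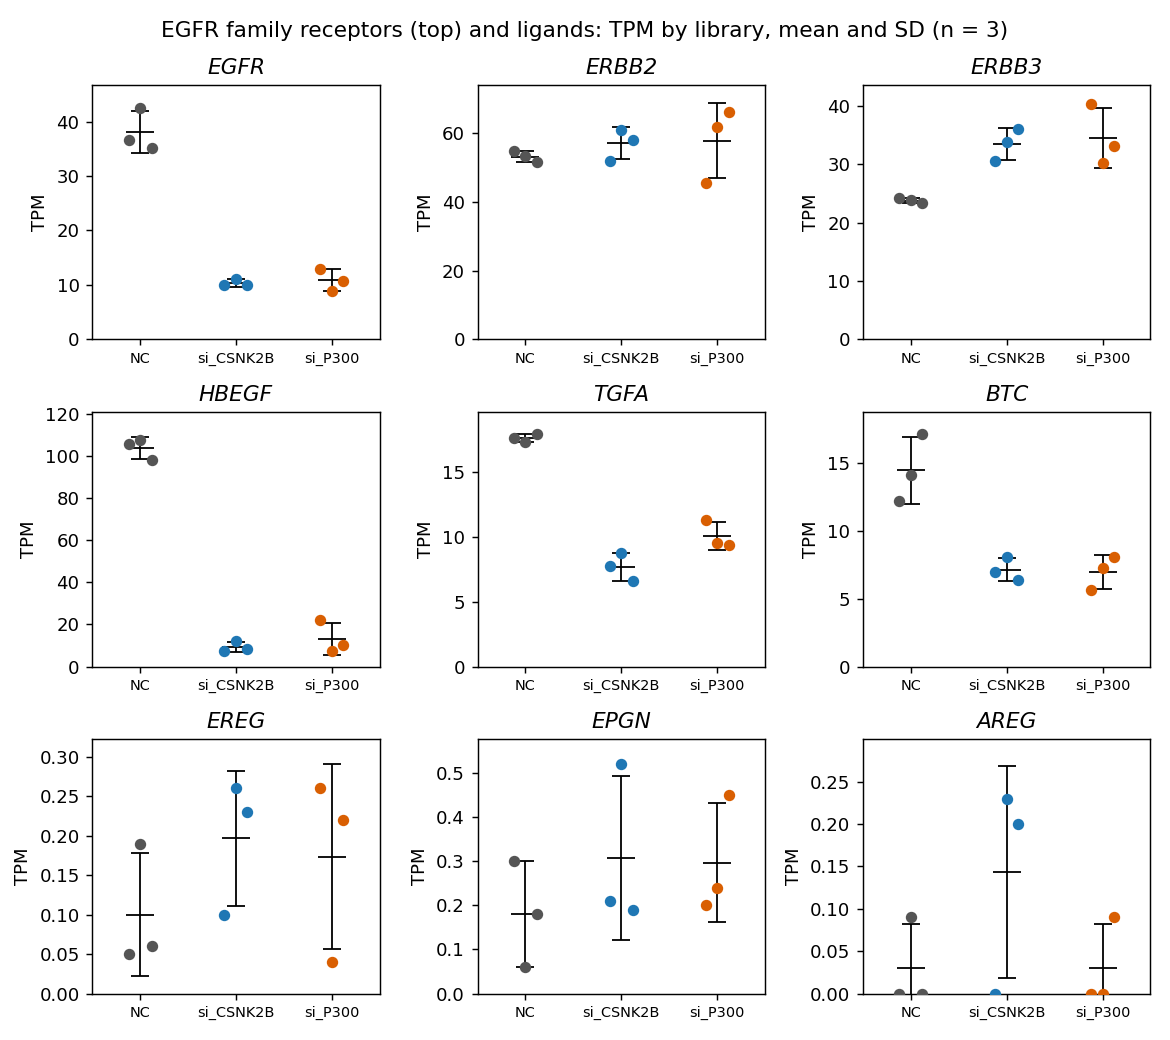
TPM (linear axis from 0) of the 9 members in each library, with each point a library and the bar and whiskers the mean and SD of 3 libraries. EGFR, HBEGF, TGFA and BTC are lower in all 6 knockdown libraries than in all 3 NC libraries, ERBB3 is higher, ERBB2 overlaps, and EREG, EPGN and AREG stay at or under 0.52 TPM.

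Among the receptors, the level of EGFR was 36.6, 42.4 and 35.1 TPM in NC replicates 1 to 3. It was 9.91, 11.1 and 10.0 TPM in si_CSNK2B and 13, 8.95 and 10.8 TPM in si_P300. Every knockdown library lay below every NC library, and both knockdown groups overlapped. The log2 fold change of EGFR (edgeR, on TMM-normalised counts) was -1.93 ± 0.122 (SE) in si_CSNK2B and -1.87 ± 0.121 in si_P300, a level 3.81-fold and 3.65-fold lower than in NC.

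ERBB2, the receptor without a ligand, read 54.8, 53.4 and 51.6 TPM in NC, 52.0, 61.1 and 58.2 TPM in si_CSNK2B, and 45.6, 61.8 and 66.3 TPM in si_P300. All 3 groups overlapped, and si_P300 held both the lowest and the highest library. Its log2 fold change was 0.05 with a 95% interval of -0.26 to 0.36 in si_CSNK2B, and 0.07 with an interval of -0.24 to 0.37 in si_P300. Its direction turned in some alternatives, which ran from -0.01 to 0.18 and from -0.03 to 0.23.

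ERBB3, the neuregulin receptor, was the member with higher levels in the knockdown groups. It stood at 24.2, 23.9 and 23.3 TPM in NC, 30.5, 33.8 and 36.0 TPM in si_CSNK2B, and 40.3, 30.3 and 33.1 TPM in si_P300. No knockdown library overlapped NC. The log2 fold change of ERBB3 was 0.47 ± 0.127 in si_CSNK2B and 0.51 ± 0.127 in si_P300, or 1.39-fold and 1.43-fold. Within each library the ratio of ERBB3 to EGFR in TPM was 0.563 to 0.662 in NC, 3.05 to 3.59 in si_CSNK2B and 3.06 to 3.38 in si_P300, so EGFR exceeded ERBB3 in all 3 NC libraries and ERBB3 exceeded EGFR in all 6 others.

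The sum of the 4 receptor transcripts, with ERBB4 at no more than 0.01 TPM in any library, was 110.0 to 119.8 TPM in NC, 92.4 to 105.9 TPM in si_CSNK2B and 99.0 to 110.2 TPM in si_P300. EGFR made up 33.0% ± 2.11 of that sum in NC (SD, n = 3), 10.3% ± 0.576 in si_CSNK2B and 10.6% ± 2.26 in si_P300. The share of ERBB3 was 20.7% ± 0.649, 33.1% ± 1.33 and 33.6% ± 6.20 in the same order, and that of ERBB2 46.3% ± 1.49, 56.6% ± 0.940 and 55.8% ± 8.44. Shares of a sum move against each other by construction.

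HBEGF, the heparin-binding ligand of EGFR and ERBB4, differed most from NC of all members. It read 105.7, 107.8 and 98.0 TPM in NC. In si_CSNK2B it read 7.38, 12 and 8.17 TPM, and in si_P300 21.9, 7.40 and 10.2 TPM. The highest knockdown library, si_P300 replicate 1, still lay far under the lowest NC library. The log2 fold change of HBEGF was -3.55 ± 0.312 in si_CSNK2B, 11.7-fold lower than in NC, and -3.05 ± 0.301 in si_P300, 8.26-fold lower. Without si_P300 replicate 1 the latter was -3.59. Within groups, the SD of log2 CPM was 0.048 in NC, 0.355 in si_CSNK2B and 0.750 in si_P300, so HBEGF varied more between knockdown libraries than between controls.

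TGFA, a ligand of EGFR, stood at 17.6, 17.3 and 17.9 TPM in NC, 7.72, 8.74 and 6.57 TPM in si_CSNK2B, and 11.3, 9.51 and 9.33 TPM in si_P300. None of the 3 groups overlapped another, with si_CSNK2B the lowest. The log2 fold change of TGFA against NC was -1.24 ± 0.130 in si_CSNK2B and -0.87 ± 0.128 in si_P300.

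BTC, betacellulin, a ligand of EGFR and ERBB4, read 12.2, 14.1 and 17.1 TPM in NC, 6.96, 8.03 and 6.39 TPM in si_CSNK2B, and 5.62, 7.26 and 8.04 TPM in si_P300. Both knockdown groups lay below NC and overlapped each other. Its log2 fold change was -1.09 ± 0.185 and -1.14 ± 0.185, about the size seen for TGFA and well short of that for HBEGF. BTC stands in the same chromosome 4 cluster as the 3 ligands near 0.

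EREG, AREG and EPGN, all ligands of EGFR, were at the edge of detection. AREG had a count of 0 in 5 of 9 libraries and at most 2 in the others. EPGN had 1.42 to 9.79 counts per library and EREG 1.59 to 11.38. EPGN and AREG did not pass the filter on low counts. EREG passed through 3 knockdown libraries, since every NC library lay below the limit. The log2 fold change of EREG was 0.90 with an interval of -0.54 to 2.34 in si_CSNK2B, and 0.77 with an interval of -0.66 to 2.21 in si_P300, and its libraries overlapped in all 3 groups. Without NC replicate 2 these values were 1.66 and 1.51. No statement on a difference of AREG or EPGN can be made at this depth.

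The sum of the 7 EGFR ligand transcripts, with EGF at 0.06 to 0.16 TPM, was 133.3 to 139.7 TPM in NC. It was 21.8 to 29.9 TPM in si_CSNK2B and 24.6 to 39.4 TPM in si_P300. HBEGF made up 76.2% ± 2.32 of it in NC, 36.8% ± 3.64 in si_CSNK2B and 40.6% ± 13.4 in si_P300. In si_P300 replicate 1 the share of HBEGF was 55.7%, and in the other 5 knockdown libraries 30.1% to 40.1%. TGFA took 12.9% ± 0.520 in NC, 31.2% ± 2.77 in si_CSNK2B and 33.4% ± 5.01 in si_P300, and BTC 10.6% ± 1.99, 29% ± 2.10 and 24.0% ± 8.48. The ratio of HBEGF to TGFA in TPM was 5.49 to 6.25 in NC and 0.778 to 1.94 in the knockdown libraries.

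**Figure D2:**
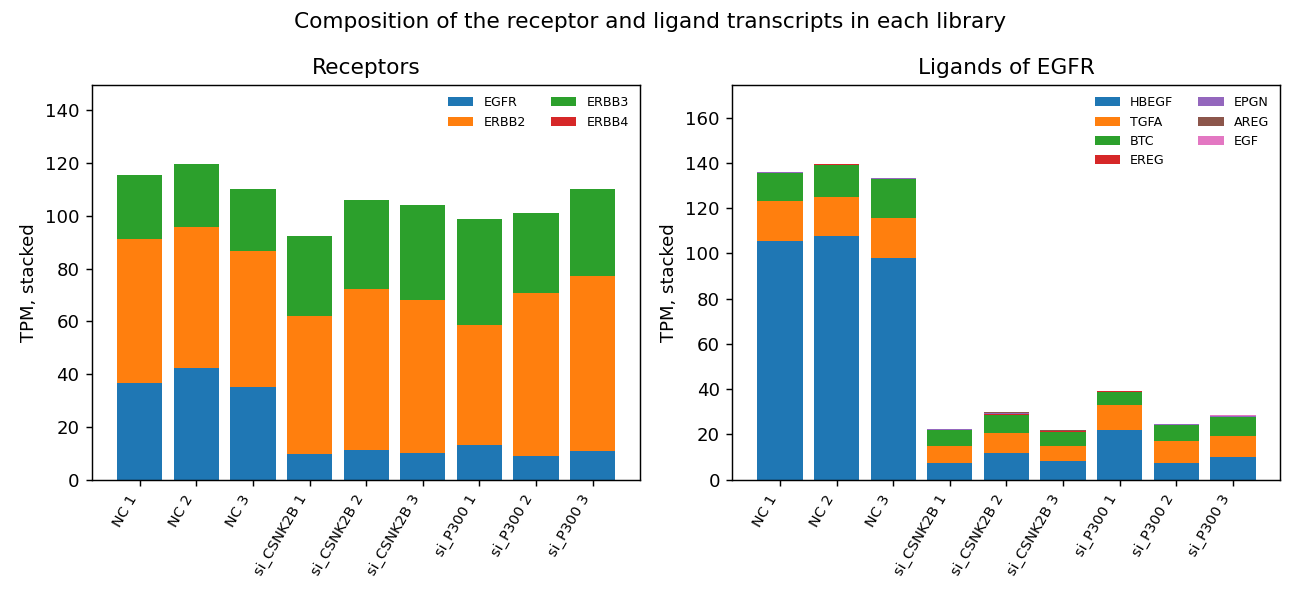
TPM of the ERBB receptors (left) and of the EGFR ligands (right), stacked for each of the 9 libraries on linear axes from 0. The receptor sums lie between 92.4 and 119.8 TPM with a smaller EGFR part in the 6 knockdown libraries. The ligand sums are at least 133.3 TPM in NC and at most 39.4 TPM in the knockdown libraries, and most of this drop is in HBEGF.

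Of the 9 members, 7 passed the filter. In si_CSNK2B against NC, 1 of them was past the threshold on the higher side (ERBB3) and 4 on the lower side (EGFR, HBEGF, TGFA and BTC), where 34.0% of all tested genes were called, 16.2% higher and 17.8% lower (edgeR, adjusted p under 0.05). In si_P300 against NC the same 5 genes were past it, where 28.3% of all tested genes were called, 13.6% higher and 14.7% lower. The libraries of the groups did not overlap for those 5 members in either comparison, as for 53.0% and 46.5% of all tested genes. These comparisons chose the members and share the NC libraries, so nothing is read from the counts. ERBB3 was not past the threshold without NC replicate 2 or NC replicate 3 in either comparison, nor in si_CSNK2B without its replicate 3.

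The comparison of si_CSNK2B with si_P300 took no part in choosing the members, and asks whether the family differs between the knockdowns. None of the 7 tested members passed (edgeR, adjusted p of 0.946 to 0.994), as 0.0% of all tested genes did. DESeq2 called 7 genes, none of them a member, and limma-trend on log2 TPM called 0. Of 13129 tested genes, 661 had an unadjusted edgeR p under 0.05, about as many as this threshold passes where no gene differs. The difference of EGFR was -0.06 on the log2 scale, with a 95% interval of -0.32 to 0.20. That of ERBB2 was -0.02 (-0.33 to 0.29), of ERBB3 -0.04 (-0.31 to 0.24), of BTC 0.05 (-0.36 to 0.47) and of EREG 0.12 (-1.20 to 1.45). For HBEGF it was -0.51 with an interval of -1.17 to 0.16, and 0.04 without si_P300 replicate 1. TGFA differed by -0.37 (-0.65 to -0.08) and had the lowest unadjusted p of the members, 0.0155, which did not survive adjustment over all genes (edgeR adjusted p = 0.946). It was lower in 3 of 3 si_CSNK2B libraries than in any si_P300 library, a separation that 7.14% of all tested genes showed in either direction.

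**Figure D3:**
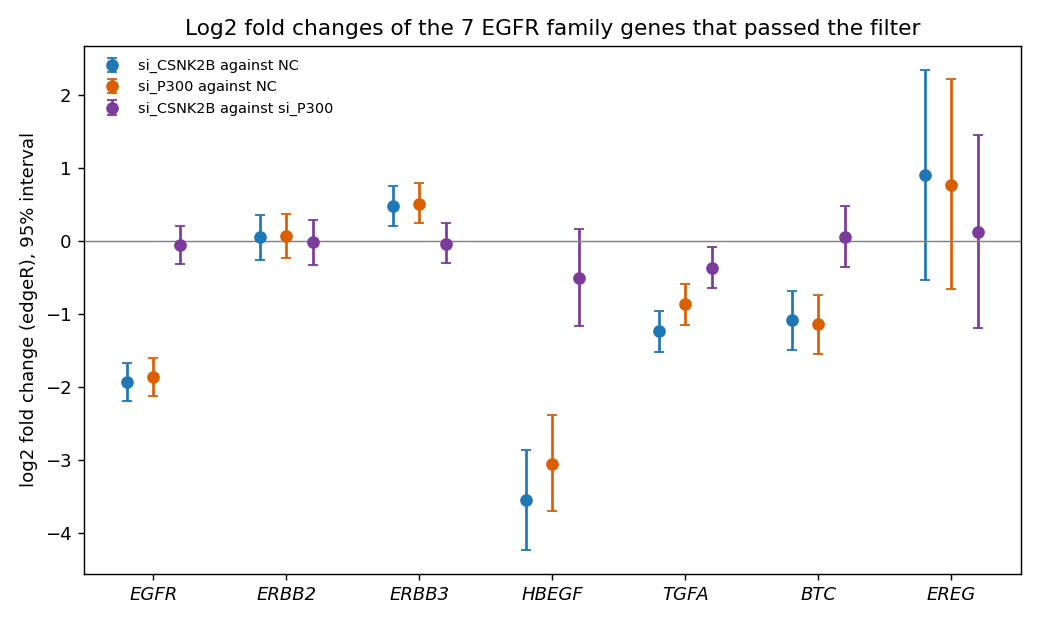
Log2 fold changes from edgeR with 95% intervals for the 7 members that passed the filter, in each comparison of 3 against 3 libraries. Against NC, where the values are a description, HBEGF lies lowest at -3.55 and -3.05 and ERBB3 lies at 0.47 and 0.51. Between the knockdown groups only the interval of TGFA, -0.65 to -0.08, leaves out 0 before adjustment.

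In si_P300, replicate 1 held the highest EGFR, ERBB3, HBEGF and TGFA levels of its group and the lowest ERBB2 and BTC levels. For EGFR it was not set apart, at 61.8 CPM beside 46.1 and 54.8 CPM in replicates 2 and 3. The SD of log2 CPM in si_P300 was 0.212 for EGFR, 0.322 for ERBB2, 0.229 for ERBB3 and 0.290 for BTC, against 0.109, 0.059, 0.088 and 0.251 in NC. TGFA, at 0.117 in si_P300 and 0.053 in NC, varied less, and in si_CSNK2B its SD was 0.229.

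By the root mean square difference of log2 CPM, each gene taken as its deviation from its mean over the 9 libraries, HKDC1 was closest to HBEGF of 12890 genes, at 0.112, where HBEGF itself departed from its mean by 1.645. HKDC1, a hexokinase domain gene, stood at 22.8 ± 4.24 CPM for si_CSNK2B and 32.4 ± 17.6 CPM for si_P300, against 250 ± 16.1 CPM for NC (SD, n = 3). PPP1R15A (0.214) and NUPR1 (0.261) came next. For EGFR, which departed by 0.904, GFPT1 (0.106) and TUFT1 (0.114) were among the 3 closest, and for TGFA the closest were NFE2L1 (0.063), ST6GALNAC3 (0.075) and PJA1 (0.096). RBM3 (0.130), PYCR1 (0.144) and IDH1 (0.147) were closest to BTC. ERBB3 had ZNF606 (0.064), MBOAT2 (0.072) and VIL1 (0.085), and ERBB2 had AACS (0.050), LMAN2L (0.050) and SYS1 (0.062). EREG, with few counts, had no gene closer than GOLGA8A (0.280). The 9 libraries fall into 3 groups, so these values describe a shared pattern over groups.

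Genes around the receptors were read in 6 lists of 75 genes, of which 68 were tested. In si_CSNK2B against NC 26 of them fell and 4 rose, with a median log2 fold change of -0.23, beside 0.037 over all tested genes. In si_P300 against NC 22 fell and 7 rose, with a median of -0.21 beside 0.042. The shares called, 44.1% and 42.6%, stand beside 34.0% and 28.3% of all tested genes. Between the knockdown groups 0 of 68 passed (edgeR), with 661 of the 13129 tested genes at an unadjusted p under 0.05 and 7 called by DESeq2. Like the members, the lists were drawn up with earlier results of these data known.

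Of the receptor and ligands of the family that are not members, ERBB4, EGF, NRG2 and NRG3 were near 0 and not tested. NRG4, a neuregulin that binds ERBB4, rose from 1.44 to 2.89 CPM in si_CSNK2B (log2 fold change 1.02 ± 0.286, edgeR adjusted p = 0.0172) and to 2.63 CPM in si_P300 (0.87 ± 0.286, adjusted p = 0.0397). The call of NRG4 is weak: it held in 15 of 18 alternatives in si_CSNK2B (adjusted p of 0.0104 to 0.074, lost without NC replicate 1 or 3 or si_CSNK2B replicate 1) and in 7 of 18 in si_P300 (0.0241 to 0.141). NRG1, a ligand of ERBB3 and ERBB4, did not pass, with 1.12 CPM in NC against 1.82 for si_CSNK2B and 0.996 for si_P300.

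Of 11 tested genes of ligand shedding and trafficking, 3 fell and 1 rose in si_CSNK2B, and 2 fell and 2 rose in si_P300, with a median of -0.04 in both. The share called was 36.4% in both, beside 34.0% and 28.3% of all tested genes. ADAM17, the main sheddase of TGFA and HBEGF, fell 1.82-fold in si_CSNK2B (log2 fold change -0.86 ± 0.133) and 1.6-fold in si_P300 (-0.67 ± 0.132). CNIH1, a cargo receptor whose fly relative exports an EGFR ligand, fell by 0.68 and 0.58 on the log2 scale. FRMD8, which stabilises the iRhom and ADAM17 complex, rose by 0.47 and 0.62. ADAM10, another sheddase, did not pass, at -0.31 and -0.25 (edgeR adjusted p = 0.0740 and 0.161).

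Of 16 genes that inhibit the receptors or turn them over, 6 fell and 0 rose in si_CSNK2B and 7 fell and 1 rose in si_P300. Their medians were -0.22 and -0.29. The shares called were 37.5% and 50.0%, beside 34.0% and 28.3% of all tested genes. ERRFI1, the cytosolic inhibitor of EGFR that ERK signalling induces, fell from 1767.8 to 236.0 CPM in si_CSNK2B (log2 fold change -2.91 ± 0.451, edgeR adjusted p = 0.000574) and to 483.2 CPM in si_P300 (-1.87 ± 0.433, edgeR adjusted p = 0.00793). The si_P300 libraries read 944.7, 191.9 and 312.9 CPM, and without replicate 1 the log2 fold change of ERRFI1 was -2.81. LRIG1, a membrane protein that promotes EGFR degradation, fell 2.25-fold and 2.01-fold. RNF41, the ubiquitin ligase also called NRDP1 that takes ERBB3 to degradation, fell 1.98-fold in si_CSNK2B (-0.99 ± 0.101) and 1.83-fold in si_P300 (-0.87 ± 0.1). CBLC, a ubiquitin ligase of the CBL family, fell by 0.38 and 0.44, the former not called with library sizes alone (edgeR adjusted p = 0.0555, the highest of 19 alternatives that began at 0.000459). Without NC replicate 3, 4 of the list were called in si_P300.

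Of 16 adaptors and proximal effectors, 6 fell and 2 rose in si_CSNK2B and 4 fell and 2 rose in si_P300. Their medians were -0.22 and -0.19. The shares called were 50.0% and 37.5%, beside 34.0% and 28.3% of all tested genes. GAB2, a docking protein, fell 2.48-fold (-1.31 ± 0.111) and 2.37-fold (-1.25 ± 0.110). SHC1, the adaptor that links the receptors to RAS, fell 1.6-fold and 1.66-fold, and SOS2, a RAS exchange factor, 1.73-fold and 1.58-fold. PLCG1, the phospholipase that binds EGFR, rose 2.05-fold (1.03 ± 0.129) and 1.75-fold (0.81 ± 0.129). GRB2, the adaptor upstream of RAS, stood at -0.05 and -0.01 and did not pass. Without any 1 of the NC libraries 4 of the list were called in si_CSNK2B in place of 8.

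Of 13 genes from RAS to ERK, 4 fell and 0 rose in si_CSNK2B and 2 fell and 0 rose in si_P300, with medians of -0.22 and -0.14. The shares called, 30.8% and 15.4%, lay below the 34.0% and 28.3% of all tested genes. BRAF fell 1.59-fold (-0.67 ± 0.121) and 1.51-fold (-0.59 ± 0.121), the latter not called by limma-trend on unfiltered TPM (adjusted p = 0.0564, the highest of 19 alternatives that began at 6.83e-05). Leaving out single libraries brought the count of the list to between 1 and 5 in si_CSNK2B and between 1 and 3 in si_P300.

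Of 10 genes whose transcripts follow ERK activity in many tumours, 7 fell and 0 rose in si_CSNK2B. In si_P300 the same 7 fell and 1 rose. Their medians were -1.24 and -1.03. The shares called were 70.0% and 80.0%, beside 34.0% and 28.3% of all tested genes, in a list drawn up with earlier results known. DUSP6, the phosphatase of ERK, fell 7.45-fold (-2.90 ± 0.233) and 4.39-fold (-2.14 ± 0.225). SPRY4, an inhibitor of RAS activation, fell from 105.8 CPM to 30.2 CPM with si_CSNK2B and to 37.1 CPM with si_P300. PHLDA1 fell 2.40-fold and 2.07-fold, and the receptor kinase gene EPHA2 2.94-fold and 2.67-fold. CCND1, ETV4 and ETV5 also fell in both. DUSP4 and SPRY2 did not pass in either comparison, at 0.22 and -0.25 in si_CSNK2B and 0.29 and -0.13 in si_P300. EPHA4 rose in si_P300 (0.37 ± 0.122, edgeR adjusted p = 0.0420).

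**Figure D4:**
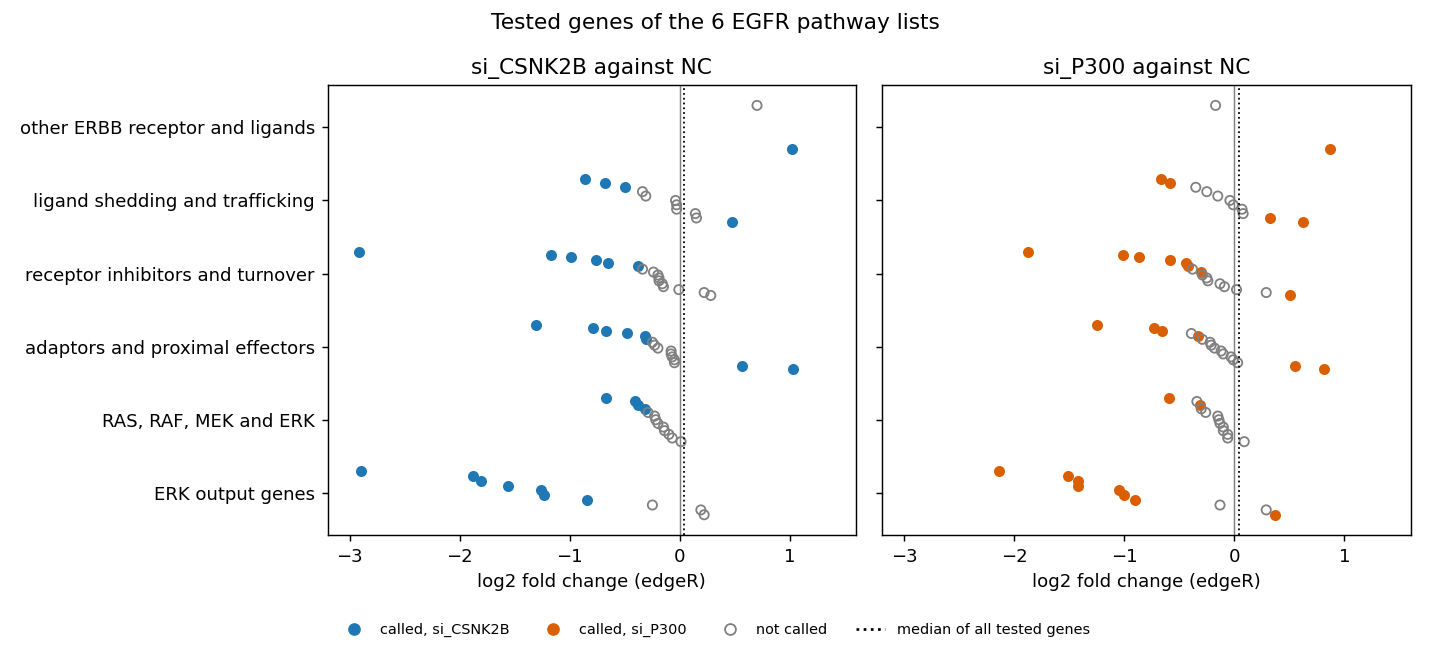
Log2 fold changes from edgeR of the 68 tested genes of the 6 lists against NC, 1 point per gene, filled where the gene was called and open where it was not, with the dotted line at the median of all tested genes. In the ERK output list 7 of 10 genes lie at -0.84 or below in si_CSNK2B and at -0.90 or below in si_P300, and ERRFI1 is the lowest point among the receptor inhibitors.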

How the data were processed

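RNA was measured in 9 single-end libraries, 3 per group. Per the submitters' processing notes, HISAT and Bowtie2 were used on GRCh38.p13, with no versions or roles. The counting tool, annotation and strand setting are not given in the sources used here. The deposited read counts, so named per the file headers, hold values that are not whole, so they were treated like expected counts, unscaled between libraries, and the deposited TPM, the authors' length-scaled values, have 1 missing value. Another 18 columns of single libraries and 12 of group averages were not used.

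Expected counts were rounded and fitted in edgeR 4.0.16 (R 4.3.3): filterByExpr with a minimum count of 10 (13129 of 17529 genes tested), TMM factors, 1 quasi-likelihood fit over all 9 libraries, two-sided tests, Benjamini-Hochberg over all tested genes, calls at an adjusted p under 0.05. The SE is the log2 fold change divided by √F. Intervals cover 95% and come from the t distribution with the fit's degrees of freedom. CPM are counts over TMM-scaled library sizes, with a prior count of 2 on the log2 scale. With 3 against 3, an exact permutation test cannot go below 0.1. The procedure was also run on simulated counts, with a small part of the genes changed in si_CSNK2B alone and the same spread for every gene. That setting differs from these data, where many more genes were called, so it cannot vouch for the calls given here. Alternatives used DESeq2 1.42.0, limma-trend 3.58.1 on log2 TPM (pseudocounts of 1 and 0.1, a filter of 1 TPM), other factors and filters, the replicate number as a block, and fits that leave out 1 library.

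Members and lists were chosen with earlier results of these data known. Named are all members, CSNK2B and EP300, up to 3 called genes of each list with the lowest p in each comparison with NC, and the 3 genes closest to each tested member. A few genes that this rule names are not reported here. The markers given with a fold change, ADAM10, GRB2, DUSP4, SPRY2, EPHA4, CCND1, ETV4 and ETV5 were named after their values were seen. The groups share replicate numbers, which nothing in the labels ties to a common culture or day. Gene positions come from GENCODE 29 (GRCh38). Promoter sequences are RefSeq's (GRCh38.p14), matched by symbol.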

Additional observations from a re-analysis of the deposited data

How the results depend on the processing

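Counts of called genes were 4462 in si_CSNK2B against NC and 3709 in si_P300 against NC, and with 1 library left out they ran from 2928 to 5166 and from 2191 to 3882. The lowest values came without NC replicate 3 (2928 and 2191), and without NC replicate 1 the count in si_P300 was 2322. Genes of the 6 pathway lists called in si_P300 numbered 29, and 19 to 32 with 1 library left out (19 without NC replicate 3). Between the knockdown groups edgeR called 0 genes and DESeq2 7. Deviations from the group means correlated at -0.29 to 0.061 between same-numbered libraries and at -0.192 to 0.256 between other pairs. With 3 libraries per group, these values cannot tell whether same-numbered libraries shared a culture or day. The replicate block gave 3828 and 3012 called genes against NC, 25 and 22 in the pathway lists, and 0 members between the knockdown groups. Of the calls named, it lost that of NRG4 in si_P300. Scaling by library size without TMM shifted the median log2 fold change over all genes from 0.037 to 0.162 (si_CSNK2B) and from 0.042 to 0.152 (si_P300), and 66.0% of calls were higher in both, against 47.6% and 48.1%. ERBB3 then stood at 0.60 and 0.63 and EGFR at -1.81 and -1.76. HBEGF ran from -3.78 to -3.39 and from -3.59 to -2.78 over 19 alternatives, and EGFR, TGFA, BTC and ERBB3 kept their direction against NC in all 19. Depth limits AREG, EPGN and EREG, which had at most 11.38 counts in a library.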
